A study of Mus musculus with 16 samples.

Results

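Livers of mice fed a medium-fat diet (MF) were compared with livers of mice fed the control diet (C). All 4 samples labelled MF and all 4 labelled C were used, 8 of the 16 arrays in the series, with 1 mouse behind each array. The mice were male C57BL/6J. They arrived at 7 weeks of age, ate their diet from 9 weeks and were killed at 12 months. The C-fed mice received the purified diet AIN-93W ad libitum, and the MF-fed mice received AIN-93W-MF, in which fat supplied 25% of the energy, also ad libitum. After a 4 h fast each mouse was gavaged either with the carrier, 0.5% carboxymethyl cellulose (mock), or with Wy-14643 in that carrier at 160 mg/kg (Wy), an agonist of the nuclear receptor PPARα, and was killed after a further 6 h without food. Within a diet, mock and Wy mice were matched by body weight, giving a pair of high and a pair of low body weight. Each diet therefore held a high mock, a high Wy, a low mock and a low Wy liver, and each matched comparison set 1 MF liver against the C liver of the same weight class and treatment. The labels give classes and no weights, so diet cannot be told apart from any difference in actual weight between MF and C mice of 1 class. The other 8 arrays, from mice under 30% calorie restriction (CR) or on an intermittent diet that alternated MF weeks with 40% restriction (INT), entered the model to estimate the spread and serve here as a scale.

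The liver converts surplus carbohydrate and fat into triglyceride, burns fatty acids during fasting under the control of PPARα, and secretes most plasma proteins. Its hepatocytes also answer cytokines. Interleukin-6 family cytokines act through gp130 receptors and STAT3, interleukin-1 and Toll-like receptor signals act through NF-κB, and both routes induce acute phase proteins such as serum amyloid A and fibrinogen together with feedback inhibitors of the signal itself. Fat-rich feeding is widely used to load rodent livers with lipid, and responses commonly differ between mice that gain much and little weight.

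The measured value was a log2 intensity made by robust multi-array averaging (RMA), and every level below is on that scale. A gene was tested when its intensity exceeded 20 (log2 4.32) on at least 5 of the 16 arrays, which 14275 genes did. A gene was called when its p-value from limma, adjusted by Benjamini-Hochberg over all 14275 genes, was under 0.05. In the 8 livers the median of the tested genes ran from 7.12 to 7.21. The hepatocyte gene Alb read between 13.39 and 13.42, and the mean log2 level of 14 hepatocyte markers lay between 12.62 and 12.84. The array codes in the labels begin alike for the 8 livers and differently for both INT arrays of high body weight, and no label says what that prefix marks. The mice were housed individually and the labels name no litter. In the main models, p-values rest on the spread left after the model terms, pooled over all 16 arrays including CR and INT. No combination of diet, weight class and treatment held replicate mice. That spread therefore mixes differences between mice with any effect of Wy or weight class that differed between groups, and these cannot be told apart. The arrays measured whole liver, in which fewer cells of a type and less RNA per cell cannot be told apart.

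Across both weight classes and both treatments no gene separated MF from C. With terms for treatment and weight class, limma called 0 of 14275 genes (0%), the smallest adjusted p was 1, and 628 genes had an unadjusted p under 0.05, of which 337 were higher and 291 lower in MF. The fitted difference exceeded 1 on the log2 scale for 10 genes, and its median was -0.005 over all genes. Every MF array lay above every C array for 82 genes (0.574%) and below for 80 (0.560%). The direction was upward in all 4 matched comparisons for 929 genes (6.51%) and downward for 1087 (7.61%).

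The genes with the smallest p among those that ran 1 way in all 4 matched comparisons had small differences. Bmp7, a bone morphogenetic protein, read 6.84, 6.58, 6.53 and 6.59 in the C high mock, high Wy, low mock and low Wy livers and 6.14, 6.10, 6.46 and 6.10 in the corresponding MF livers. All 4 MF values lay below all 4 C values. The fitted difference was -0.44 ± 0.09 (SE, n = 4 mice per diet, limma adjusted p = 1). The endothelial lipase gene Lipg read 9.17, 9.66, 9.13 and 10.01 in C and 8.40, 8.60, 8.40 and 9.44 in MF, with ranges that overlapped and a difference of -0.78 ± 0.20. The nocturnin gene Noct, a rhythmic NADP(H) phosphatase, had -0.53 ± 0.13, the insulin receptor substrate Irs1 -0.62 ± 0.15, the deubiquitinase Usp2 -0.59 ± 0.15 and Tnrc6c, of the microRNA silencing machinery, -0.24 ± 0.06. In the other direction stood Unc13b (0.55 ± 0.15), Mir350 (0.51 ± 0.13), the interferon-inducible GTPase gene Iigp1 (0.36 ± 0.09), Lrig2 (0.36 ± 0.09), Med12l (0.35 ± 0.09) and Golm2 (0.30 ± 0.07). None of these 12 passed the adjustment.

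The distance between matched MF and C livers depended on the pair compared. The root-mean-square log2 difference over the tested genes was 0.25 between the high mock livers and 0.29 between the high Wy livers, against 0.20 between the low mock livers and 0.20 between the low Wy livers. Within a diet and treatment, high and low body weight livers differed by 0.42 (mock) and 0.30 (Wy) in MF and by 0.29 and 0.27 in C. Mock and Wy livers of 1 diet and class differed by 0.32 to 0.41. Genes that differed by at least 1 log2 numbered 47 upward and 34 downward between the high mock livers and 106 and 44 between the high Wy livers, whereas the low mock livers had 21 and 19 and the low Wy livers 23 and 15. The matched comparisons share no array. Across genes, which are not independent replicates, the MF minus C differences of the high mock and high Wy pairs had r = 0.43 and the same sign in 60.7% of genes, and the other 5 pairings of matched comparisons had r between -0.19 and 0.10.

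In livers of high body weight, by contrast, named genes separated MF from C. A model of diet by weight class with treatment as a term called 43 genes in the high class, 0.301% of those tested, of which 35 rose (0.245%) and 8 fell (0.0560%). At least 2-fold changes were found for 23 of the rises and 1 of the falls. At an unadjusted p under 0.05, 778 genes were higher (5.45%) and 758 lower (5.31%). Both MF high arrays lay above both C high arrays for 2259 genes (15.8%) and below for 2423 (17.0%). Of the 43 called genes 41 had ranges that did not overlap in the high class, the exceptions being Agfg2 and Lzts3, and both MF high livers read above all 14 other arrays of the series for 33 of the 35 rises, all but Gnl2 and Nrp1. The same held for 547 of all tested genes. Of the 8 falls 3 (Cyp4b1, Irs1 and Smad9) had both MF high livers below all others, as did 350 of all tested genes. These counts use the high class values by which the genes were called, so they are no separate support for the calls. In the low class 40 of the 43 differed by less than 0.5 log2, and the values of 31 overlapped between the diets. Overlap was the common case among all tested genes too. Both MF low arrays lay above both C low arrays for 11.3% of them and below for 10.5%. The share of all genes under 0.5 log2 was not counted. Over all tested genes the MF minus C differences of the low mock and low Wy pairs each had a standard deviation of 0.20. The fitted low class difference reached 1 log2 for 24 genes, so small differences there are not particular to the called genes.

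**Figure D1:**
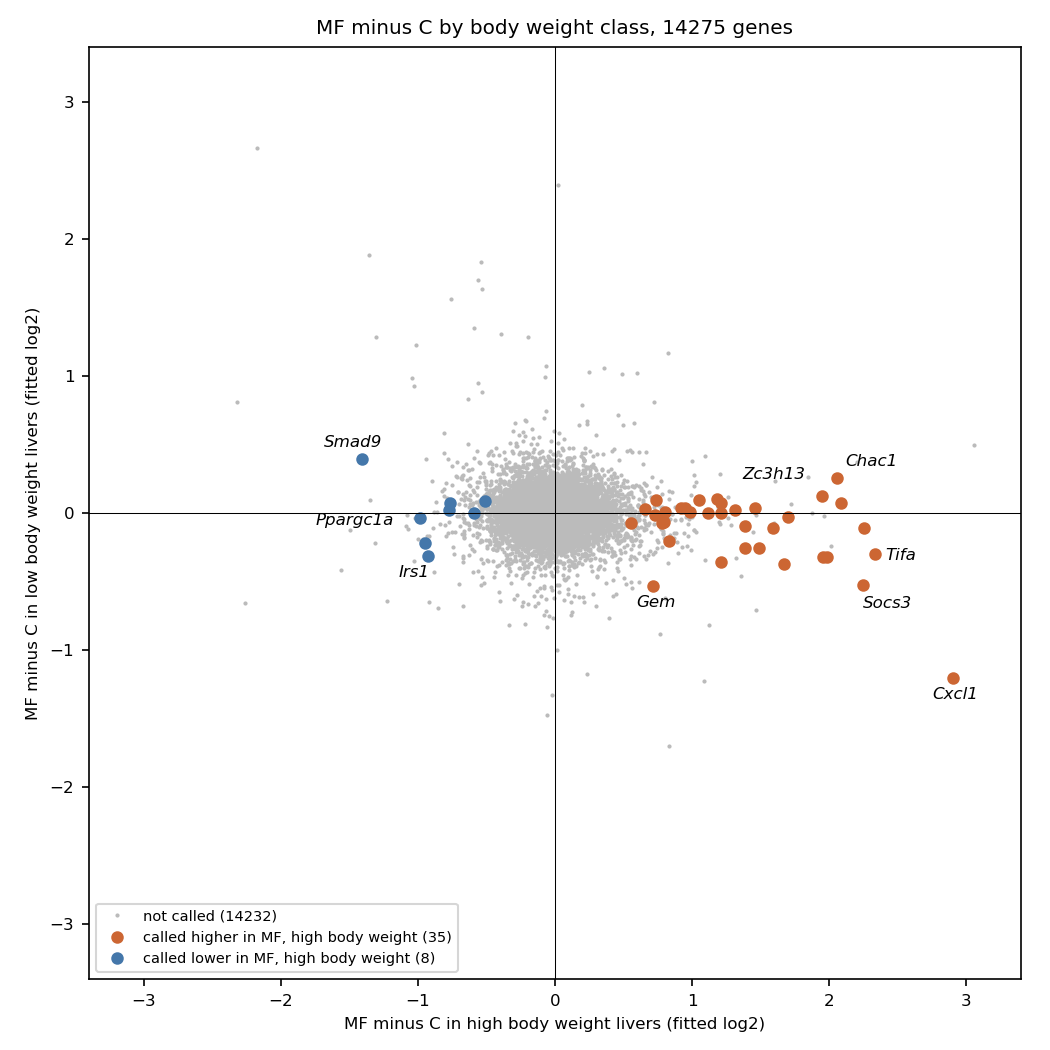
Fitted MF minus C difference (log2) of each of the 14275 tested genes in livers of high body weight on the horizontal axis and of low body weight on the vertical axis; orange points are the 35 genes called higher and blue points the 8 called lower in the high class, and grey points were not called. The called genes spread from -1.41 to 2.91 along the horizontal axis and 40 of the 43 lie within 0.5 of 0 on the vertical axis, with Cxcl1 at -1.20. Small values on the vertical axis are common to all genes, of which 24 of 14275 reach 1 log2 there.

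Each value in the high class rests on 2 mice per diet, a mock and a Wy mouse. The calls changed when a single array was left out. Without the C high mock array 8 genes were called, without C high Wy 1, without MF high mock 35 and without MF high Wy 2. Where an array of the low class was left out, the high class differences stayed as they were and the residual spread lost a mouse, and 13 genes were called without either C low array and 24 without either MF low array. Where a group was left with 1 mouse, it was assumed to vary like the others. No called gene turned its sign in any of these 8 fits. The sign could not change without a low class array, and the genes were called on these differences, so the kept signs are no separate support. The call held in 8 of 8 for Zc3h13, in 7 for Efna1 (lost without C high Wy, 1.44, adjusted p = 0.0872), in 6 for Cxcl1, Il17ra and Slc41a1, in 5 for Cpne8, Smco4, Socs3 and Tifa, in 1 to 4 for 21 genes and in 0 for 13. The fit called 114 genes (82 higher) when the 2 arrays with the other code prefix were left out, 128 (93 higher) with array weights and 2, Zc3h13 and Cxcl1, when only high body weight arrays of all diets were used.

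**Figure D2:**
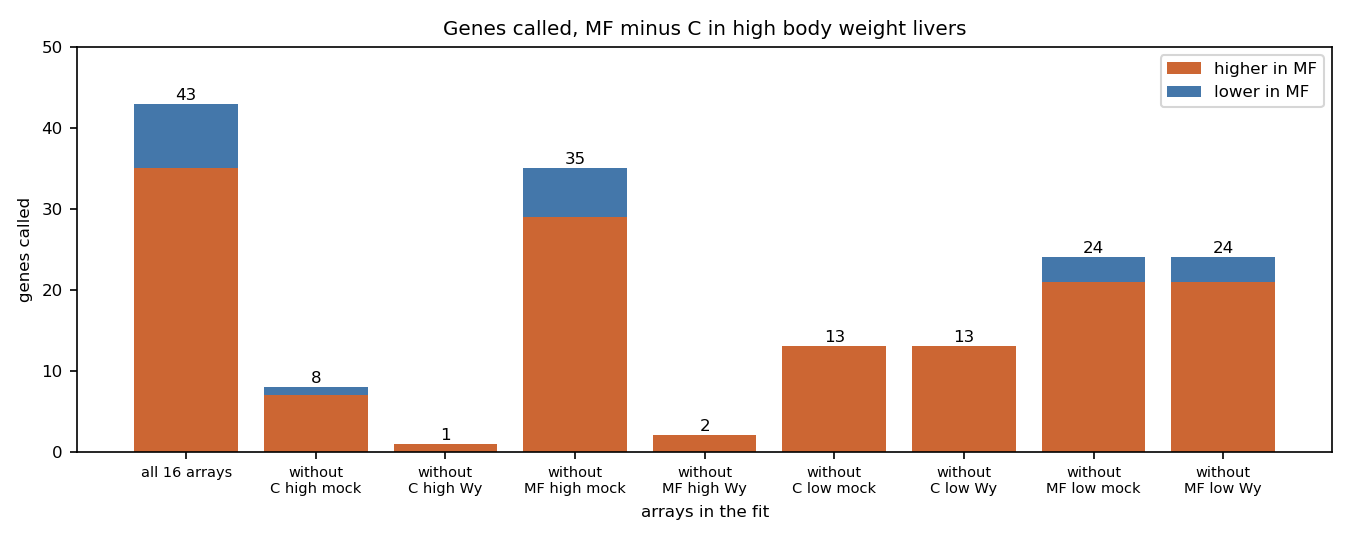
Number of genes called in MF minus C of high body weight livers (vertical axis, limma adjusted p under 0.05) with all 16 arrays and with each MF or C array left out in turn (horizontal axis), split into genes higher (orange) and lower (blue) in MF. The count of 43 drops to 1 without C high Wy and to 2 without MF high Wy, and is 35 without MF high mock.

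Of the 35 rises, 9 belong to genes with known parts in cytokine and innate immune signalling. The called genes are grouped by role here after their values were seen, so the grouping carries no test. Cxcl1, a chemokine that attracts neutrophils, read 7.18 and 6.50 in the C livers (mock, then Wy, here and below) and 9.78 and 9.71 in the MF livers. Both MF livers were far above both C livers, and the difference was 2.91 ± 0.28 (SE, n = 2 mice per diet, 7.50-fold, limma adjusted p = 0.00296). Among receptors, Il17ra, a subunit of the interleukin-17 receptor, read 7.16 and 6.97 in C against 8.52 and 8.38 in MF (1.38 ± 0.15, adjusted p = 0.00548), and the oncostatin M receptor gene Osmr 7.34 and 7.17 against 8.49 and 8.44 (1.21 ± 0.21, adjusted p = 0.0452). The ranges of both receptors were separate.

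Adaptors and inhibitors of the same pathways followed. Tifa, which links pathogen and TNF receptor signals to TRAF6 and NF-κB, read 7.18 and 6.24 in C and 9.62 and 8.46 in MF (2.33 ± 0.26, adjusted p = 0.00548), so that the mock liver was higher in both diets. Tirap, an adaptor of Toll-like receptors, had 0.95 ± 0.16. Socs3, the feedback inhibitor of STAT3 signalling, read 6.11 and 6.36 in C and 8.13 and 8.82 in MF (2.25 ± 0.29, 4.74-fold, adjusted p = 0.0155). Ptpn2, a phosphatase that acts on Janus kinases and STATs, had 0.73 ± 0.11. The nuclear IκB family member Bcl3 read 8.51 and 8.34 in C and 9.93 and 10.10 in MF (1.59 ± 0.25), and the AP-1 subunit Junb 6.94 and 6.53 against 8.21 and 8.61 (1.67 ± 0.29). All 9 genes had separate ranges in the high class, but so did 41 of the 43 called genes, which were called on these values. Among all tested genes 15.8% had both MF livers above both C livers there.

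None of these 9 calls held without a high body weight Wy array. Without C high Wy 0 of 9 passed (differences from 0.67 to 2.72, adjusted p from 0.0805 to 0.538) and without MF high Wy 0 (0.73 to 2.74, 0.0543 to 0.331). Without C high mock 2 passed, Cxcl1 and Il17ra (0.80 to 3.09 over the 9, adjusted p up to 0.164), and without MF high mock 6 (0.73 to 3.07, up to 0.173). Without either C low array 4 passed (adjusted p up to 0.0827) and without either MF low array 6 (up to 0.0683). For Cxcl1 the values without C high Wy and without MF high Wy were 2.72 (adjusted p = 0.0805) and 2.74 (0.0543), and for Socs3 2.09 (0.265) and 2.16 (0.177), with 2.40 (0.054) without C high mock.

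Promoter sequence is shown for the 3 rises whose 250 bases before the annotated start hold one of a pair of motifs searched on both strands, an NF-κB type (GGGA and TTCC with any 2 bases between) and a STAT type (TTC and GAA with any 3 bases between). Sequences are from RefSeq (GRCm38.p6), whose table held 23 of the 35 rising and all 8 falling genes. Each is printed 5′ to 3′ on the gene's strand with the match in capitals. The Cxcl1 window is chr5:90890995-90891244 on the plus strand, with overlapping matches 71 to 61 bases before the start. Socs3 is chr11:117969367-117969616 on the minus strand (match 154 to 146 bases before the start), and Steap4, described below, chr5:7960222-7960471 on the plus strand (116 to 108 bases before).
Cxcl1: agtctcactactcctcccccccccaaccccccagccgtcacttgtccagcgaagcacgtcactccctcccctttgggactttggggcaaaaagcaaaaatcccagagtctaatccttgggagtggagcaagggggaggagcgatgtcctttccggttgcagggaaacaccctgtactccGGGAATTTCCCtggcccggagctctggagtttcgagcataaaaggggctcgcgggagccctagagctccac
Socs3: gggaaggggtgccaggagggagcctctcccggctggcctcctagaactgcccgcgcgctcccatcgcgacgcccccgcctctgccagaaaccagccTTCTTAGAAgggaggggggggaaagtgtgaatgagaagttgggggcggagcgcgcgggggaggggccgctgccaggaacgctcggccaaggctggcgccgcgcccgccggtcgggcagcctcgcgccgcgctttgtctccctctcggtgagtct
Steap4: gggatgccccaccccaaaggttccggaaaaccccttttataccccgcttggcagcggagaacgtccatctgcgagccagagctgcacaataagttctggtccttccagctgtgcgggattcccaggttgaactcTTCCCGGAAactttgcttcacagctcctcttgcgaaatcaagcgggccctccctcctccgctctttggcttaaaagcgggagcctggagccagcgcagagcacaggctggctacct
A gene counted as holding a motif when any of its windows matched. The NF-κB type motif occurred in 1 of the 23 rising genes, Cxcl1. Its share was 1.46% of the 11287 tested genes with a window and 1.21% of all 32851 single windows. The STAT type motif occurred in 2 of 23, Socs3 and Steap4, and in 1 of the 8 falling genes, Cyp4b1. Its share was 7.3% of the tested genes with a window and 7.02% of all single windows. A match describes these letters and is not evidence of binding.

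The rises with parts in transport and metabolism numbered 6. Steap4, a metalloreductase that reduces iron and copper, read 10.83 and 9.94 in C and 12.24 and 11.93 in MF (1.70 ± 0.29, 3.24-fold, adjusted p = 0.0416). Chac1, which degrades glutathione and is induced in the integrated stress response, read 7.33 and 6.52 in C against 8.84 and 9.13 in MF (2.06 ± 0.34, adjusted p = 0.0397). The MF livers were above the C livers for both. Slc37a1, of the sugar phosphate exchangers, had 1.98 ± 0.27, the magnesium carrier Slc41a1 1.49 ± 0.18 and the manganese exporter Slc30a10 1.12 ± 0.16. Hcar2, a receptor for β-hydroxybutyrate and niacin, read 5.22 and 6.19 in MF, and its C livers lay about the filter level, so that its difference has no measured base. It was under the filter level on 5 of the 8 arrays and was not tested when at least 4 of the 8 MF and C arrays had to exceed it. The Steap4 call was lost in each of the 8 fits without 1 array (1.37 to 2.03, adjusted p from 0.0605 to 0.5). Of the 6 genes 0 passed without C high Wy (0.99 to 1.87) or MF high Wy (0.93 to 2.07), 1 without C high mock, 2 without either C low array and 3 without MF high mock or either MF low array.

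The genes of endothelium and cell surface were 5. Efna1, an ephrin, read 8.51 and 8.14 in C and 9.72 and 9.85 in MF (1.46 ± 0.15, adjusted p = 0.00406). Cd93, a lectin-like receptor of endothelial and myeloid cells, had 0.98 ± 0.15, the junctional adhesion molecule Jam2 0.92 ± 0.15, endothelial nitric oxide synthase Nos3 0.79 ± 0.12 and Nrp1, a coreceptor for VEGF and semaphorins, 0.74 ± 0.12. Beside them the 17 endothelial markers had a median difference of 0.06, with mean log2 levels of 8.63 and 8.55 in C and 8.72 and 8.57 in MF, and their part in these rises was not tested. Without C high Wy 0 of the 5 passed (0.67 to 1.44, adjusted p up to 0.491), without C high mock, MF high Wy or either C low array 1, Efna1, and without MF high mock or either MF low array 2.

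Of 5 genes of RNA handling and transcription, Zc3h13, a subunit of the complex that writes N6-methyladenosine into RNA, had the smallest p of any gene. It read 6.82 and 6.69 in C and 8.53 and 8.88 in MF (1.95 ± 0.12, 3.85-fold, adjusted p = 8.49e-05). Its values in the 14 other livers ran no higher than 7.06, and its call held without each array in turn (1.80 to 2.10). The zinc finger factor Klf6 had 1.18 ± 0.17, the mitochondrial helicase Ddx28 0.78 ± 0.13, the elongation factor Ell 0.66 ± 0.11 and the nucleolar GTPase Gnl2 0.56 ± 0.09. Of these, apart from Zc3h13, 0 passed without C high Wy (adjusted p up to 0.491), C high mock (up to 0.166) or MF high Wy (up to 0.331), 1 passed without MF high mock or either C low array, and 2 without either MF low array.

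The remaining 10 rises had diverse roles. Cpne8, a copine that binds phospholipids in the presence of calcium, read 6.47 and 6.42 in C and 8.37 and 9.02 in MF (2.25 ± 0.30, adjusted p = 0.0169), with the MF livers clearly above. Syt12, of the synaptotagmin family, had 2.09 ± 0.33, Nos1ap, an adaptor of neuronal nitric oxide synthase, 1.96 ± 0.28, the protein Z-dependent protease inhibitor Serpina10 1.31 ± 0.22, the activin subunit Inhbb 1.22 ± 0.20, the Ras-like Rasd1 1.21 ± 0.19 and the kinase Map3k6 1.05 ± 0.17. Smco4 had 0.83 ± 0.09, Wdr45b, of a family that binds phosphoinositides in autophagy, 0.80 ± 0.14, and the GTPase Gem 0.71 ± 0.13. Without C high Wy (adjusted p from 0.108 to 0.479) or MF high Wy (0.124 to 0.362) 0 of the 10 passed, without C high mock 1, without either C low array 4 and without MF high mock or either MF low array 5.

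**Figure D3:**
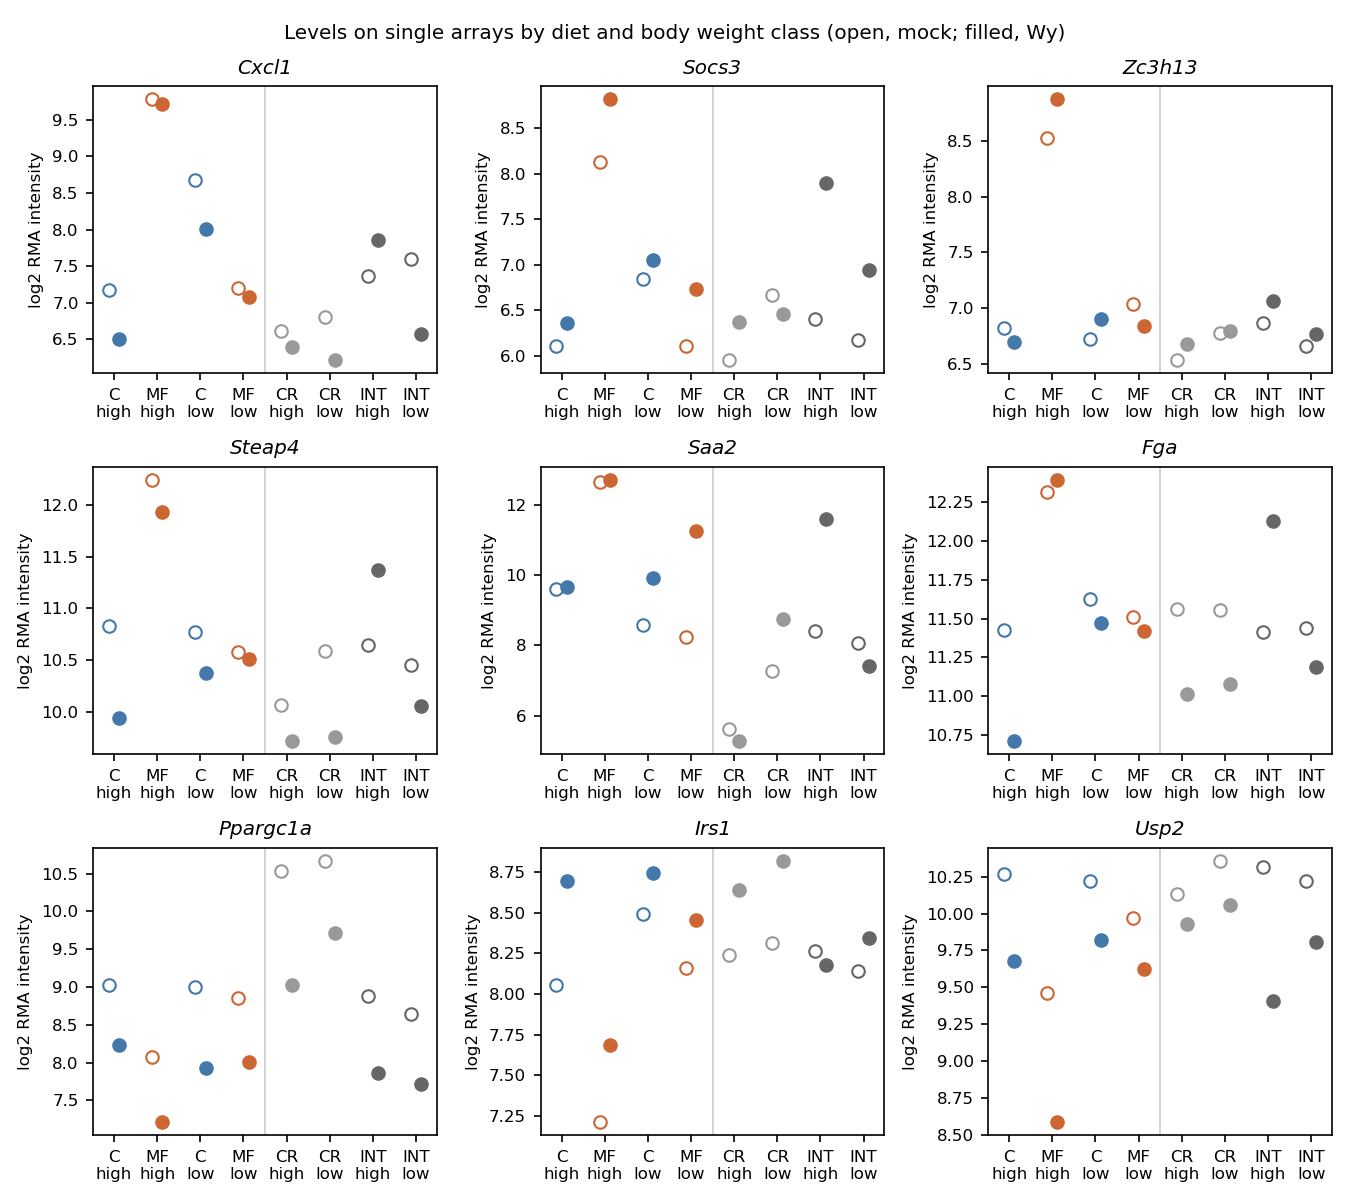
Level (log2 RMA intensity, vertical axis) on each of the 16 arrays of 9 genes by diet and body weight class (horizontal axis); open points are mock and filled points Wy livers, C blue, MF orange, CR light grey and INT dark grey. Both MF high livers stand above all other livers for Cxcl1, Socs3, Zc3h13, Steap4, Saa2 and Fga, and below the C high livers for Ppargc1a, Irs1 and Usp2.

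The 8 falls in the high class included regulators of metabolism. Ppargc1a, the coactivator PGC-1α of gluconeogenesis and oxidative metabolism, read 9.02 and 8.23 in C and 8.07 and 7.21 in MF (-0.99 ± 0.15, SE, n = 2 mice per diet, limma adjusted p = 0.0297). Irs1, which carries the insulin signal from its receptor, read 8.06 and 8.69 in C and 7.21 and 7.69 in MF (-0.92 ± 0.14, adjusted p = 0.0336). Both MF livers lay below both C livers for these genes. Usp2, a deubiquitinase under clock control, read 10.27 and 9.68 against 9.46 and 8.59 (-0.95 ± 0.17, adjusted p = 0.0443). Smad9, which transmits bone morphogenetic protein signals, read 8.13 and 7.77 against 6.64 and 6.44, the deepest fall (-1.41 ± 0.21, 2.66-fold lower, adjusted p = 0.0299), and in the low class its MF livers were higher than the C livers instead (0.39 ± 0.21, not called).

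Smaller falls were those of the P450 gene Cyp4b1 (-0.77 ± 0.14), Agfg2 (-0.77 ± 0.12), Lzts3 (-0.59 ± 0.10) and Gpsm3, a modulator of G protein signalling (-0.51 ± 0.09). Agfg2 and Lzts3 overlapped between diets, with Wy livers lower than mock livers in both. Of the 8 falls 0 passed without C high Wy (-1.72 to -0.55, adjusted p from 0.0805 to 0.479), MF high Wy (0.177 to 0.351), C high mock (0.054 to 0.2) or either C low array (0.0627 to 0.0918), and 3 passed without MF high mock (up to 0.173) or either MF low array (up to 0.0611). Irs1 passed in 0 of the 8 fits (-1.10 to -0.75).

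The difference between weight classes was tested as its own contrast, the MF minus C difference in the high class minus that in the low class. It was called for 3 genes, 0.0210% of those tested, all higher in the high class, and 1085 genes had an unadjusted p under 0.05. Cxcl1 turned with weight class. In the low class it read 8.68 and 8.01 in C and 7.20 and 7.08 in MF (-1.20 ± 0.28, adjusted p = 1), with both MF livers below both C livers, and the difference between classes was 4.11 ± 0.39 (limma adjusted p = 0.00319). Its C livers of high body weight were also the lower ones within C, by 1.51, and its MF livers of high body weight the higher ones within MF, by 2.61. Zc3h13 read 6.72 and 6.90 in C and 7.04 and 6.84 in MF of low body weight, where the diets overlapped, and differed between classes by 1.82 ± 0.17 (adjusted p = 0.00319). Smco4, which encodes a small membrane protein, read 5.63 and 5.57 in C and 6.42 and 6.44 in MF of high body weight, against 6.08 and 5.93 in C and 5.84 and 5.76 in MF of low body weight (1.03 ± 0.13, adjusted p = 0.0408).

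The Cxcl1 and Zc3h13 differences passed without each array in turn (adjusted p up to 0.0367 and 0.0433), and that of Smco4 in none of the 8 fits (0.98 to 1.09, adjusted p from 0.0624 to 0.317). When only the 8 MF and C arrays were fitted, 7 genes were called, and of the 3 only Cxcl1 (adjusted p = 0.0081), with Zc3h13 at 0.0552 and Smco4 at 0.0575. Next by p were Tifa (2.63, adjusted p = 0.0504) and Il17ra (1.48, adjusted p = 0.0504), which did not pass, though Tifa passed without the MF low mock array (2.99, adjusted p = 0.0446). For 40 of the 43 genes called in the high class the difference between classes did not pass. In all 43 it had the sign of the high class difference. It contains that difference, by which the genes were called, so the shared sign is no separate support. All 35 rises were higher in MF livers of high than of low body weight, and 7 of the 35 were higher in C livers of high than of low body weight. Both counts use the high class values by which these genes were called, so they are no separate sign of a dependence on weight class.

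In livers of low body weight limma called 0 genes (0%), with a smallest adjusted p of 0.583 and 385 genes at an unadjusted p under 0.05, 193 of them higher in MF. Both MF arrays lay above both C arrays for 1616 genes (11.3%) and below for 1503 (10.5%). None of the 43 genes called in the high class had an unadjusted p under 0.05 with the same sign here. Among all 14275 tested genes 193 were higher and 192 lower at that p. At such shares few or none of 43 would be counted, so the 0 is not particular to the called genes. Nearest to a call was the microRNA transcript Mir697, which read 5.18 and 5.29 in C and 4.59 and 4.52 in MF (-0.68 ± 0.10, adjusted p = 0.583). Pdzk1ip1, a small membrane protein of epithelia, read 8.29 and 8.41 in C and 7.38 and 6.96 in MF (-1.18 ± 0.22, adjusted p = 1). Both had separate ranges. In the other direction the chemokine Ccl28 (0.36 ± 0.09) and Cybc1, a chaperone of the phagocyte NADPH oxidase (0.35 ± 0.09), came first.

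The diets did not separate within a treatment either. With body weight class as a term 0 genes (0%) were called among mock livers (269 at an unadjusted p under 0.05) and 0 (0%) among Wy livers (499), and the difference between the treatments gave 0 (0%, 242 at an unadjusted p under 0.05). Ppp1r3c, a subunit that directs protein phosphatase 1 to glycogen, was nearest among genes lower in mock MF livers, with 8.70 and 7.71 in the high and low C livers and 6.79 and 7.14 in the MF livers (-1.24 ± 0.28, limma adjusted p = 1). In Wy livers it read 4.78 and 4.90 in C and 4.63 and 4.76 in MF. The RNA gene Rny1 (0.38 ± 0.10), Iigp1 (0.46 ± 0.12) and Tex46 (-0.32 ± 0.08) were the other genes nearest in mock livers, and Mir350 (0.82 ± 0.17), Mamstr (0.50 ± 0.10), Cutal (-0.60 ± 0.12) and Tnik (-0.64 ± 0.14) in Wy livers. Of the difference between treatments the nearest were Crygn (-0.71 ± 0.16), Tex46 (0.48 ± 0.11), Gpatch3 (-0.59 ± 0.13), Oaz2 (0.58 ± 0.14) and Cldn3 (-0.48 ± 0.12), all with adjusted p = 1. Without C low mock 1 gene was called in mock livers, and without MF low Wy 3 in Wy livers. Ppara itself, which encodes the receptor for Wy, read between 11.28 and 11.55 in the 8 livers (-0.07 ± 0.10, adjusted p = 1).

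Gene lists describe the differences by function, and no test of a list was run. A list is described by its median difference and by how many members passed, beside the same values over all genes. Over all genes in the high class the median was -0.02, 0.301% were called, 5.45% were higher and 5.31% lower at an unadjusted p under 0.05, and 15.8% had both MF livers above and 17.0% below both C livers. In the low class the median was 0.00, 193 of 14275 genes were higher and 192 lower at an unadjusted p under 0.05, and 11.3% lay above and 10.5% below. Of 51 lists 6 held a called gene in the high class, with 7 of the 43 genes among their members, and 0 held one in the low class or over both classes. Medians in the high class ran from -0.41 to 1.60 over the lists and in the low class from -0.22 to 0.42.

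**Figure D4:**
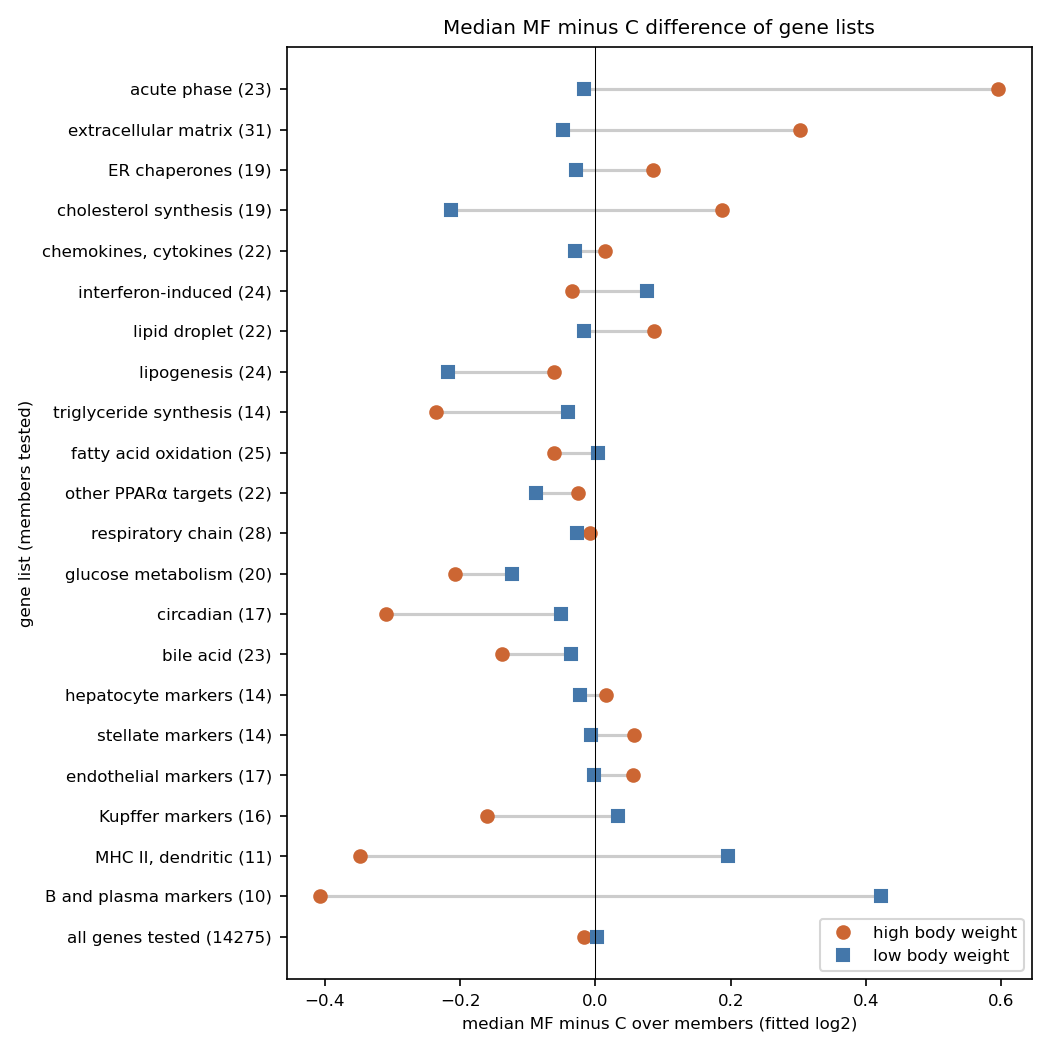
Median fitted MF minus C difference (log2, horizontal axis) over the tested members of 21 gene lists and over all tested genes (vertical axis, number tested in brackets), in high (orange circles) and low (blue squares) body weight livers. The acute phase list has 0.60 in the high class and -0.02 in the low class, and the lists of B and plasma cell and of MHC class II genes lie below 0 in the high class and above 0 in the low class.

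The acute phase list stood highest among the pathway lists. Its 23 tested members, mostly proteins that the liver secretes in inflammation, had a median of 0.60 in the high class and -0.02 in the low class. In the high class 1 member was called, Steap4, 17 of 23 were higher and 0 lower at an unadjusted p under 0.05, and 18 of 23 had both MF livers above both C livers, against 5.45% higher at that p and 15.8% above over all genes. The median stayed between 0.49 and 0.63 without each array in turn. Mean log2 levels over the list were 11.24 and 11.15 in the C livers and 12.08 and 12.04 in the MF livers of high body weight. In the low class the mock and Wy livers went opposite ways, with 10.98 and 11.16 in C against 10.69 and 11.42 in MF.

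Single members were large and variable. Saa2, a serum amyloid A, read 9.60 and 9.66 in C and 12.66 and 12.72 in MF of high body weight (3.06 ± 0.84, adjusted p = 0.191) and 8.59, 9.93, 8.24 and 11.26 in the C mock, C Wy, MF mock and MF Wy livers of low body weight. In the other diets it ran from 5.28 to 8.77 (CR) and from 7.42 to 11.62 (INT). The fibrinogen chain Fga read 11.43 and 10.71 in C and 12.32 and 12.39 in MF (1.28 ± 0.26, adjusted p = 0.0756). Fgg, another fibrinogen chain, had 0.41 ± 0.11, the hyaluronan-binding Itih3 0.61 ± 0.14 and the iron-sequestering lipocalin Lcn2 1.88 ± 0.87 (adjusted p = 0.474). Metallothionein Mt1 read 11.02 and 10.65 in C and 12.78 and 12.92 in MF (2.02 ± 0.66, adjusted p = 0.267). Saa3, the serum amyloid A made mainly outside hepatocytes, had -0.08 in the high class, unlike Saa2.

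**Figure D5:**
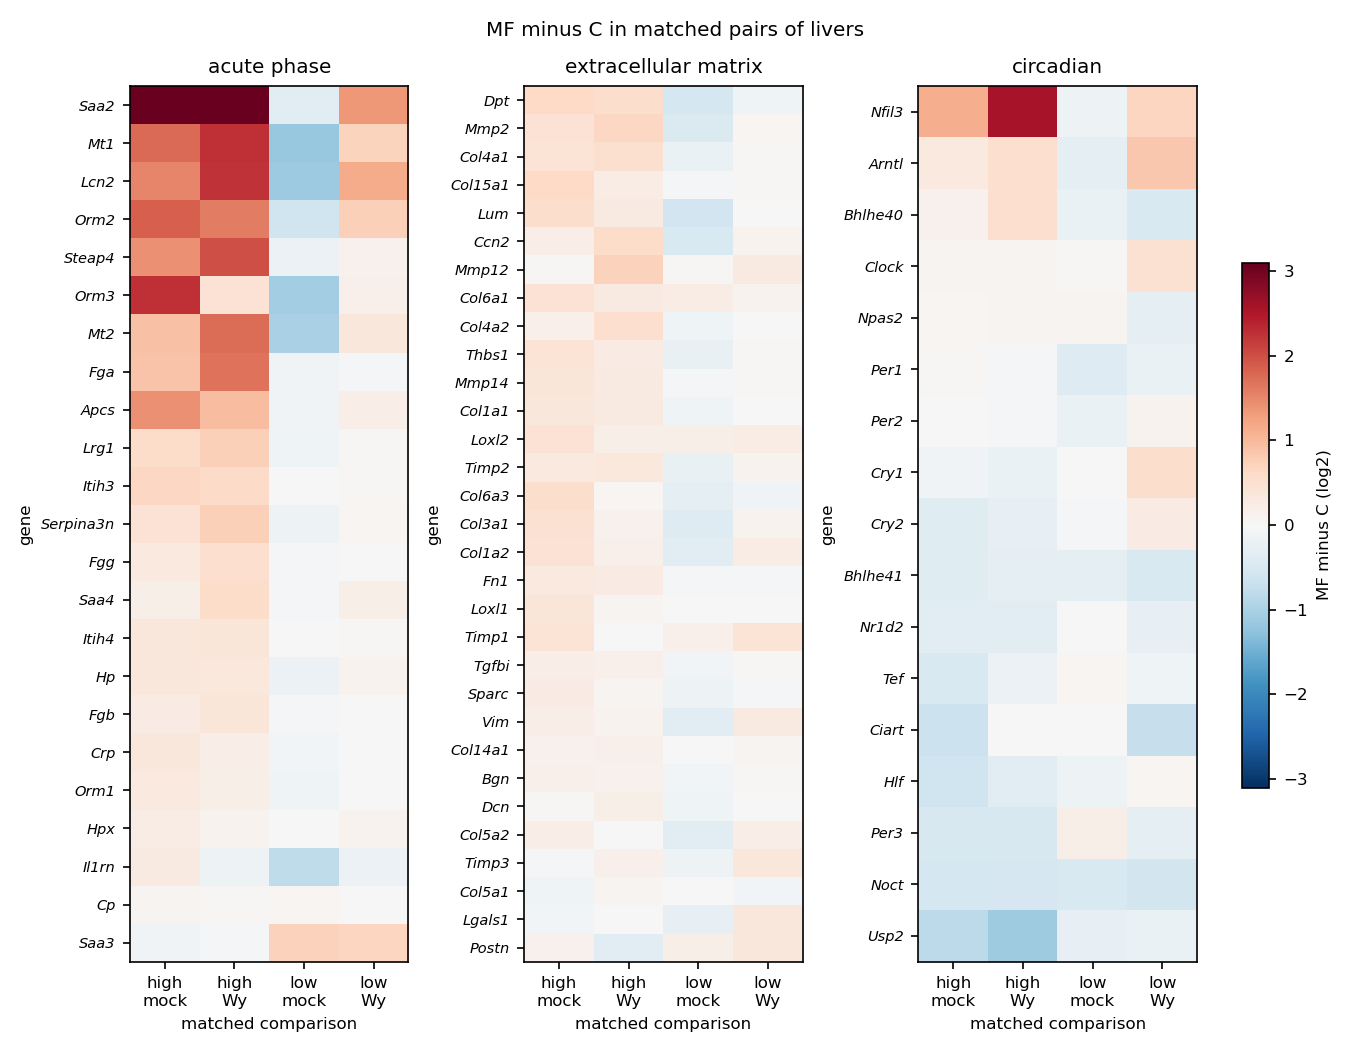
MF minus C difference (log2, colour) in each of the 4 matched comparisons (horizontal axis: high mock, high Wy, low mock, low Wy) for the tested members of the acute phase, extracellular matrix and circadian lists (vertical axis), sorted by the fitted high class difference. Acute phase and matrix members are mostly above 0 in both high class columns, with no common direction in the low class columns, and Usp2 and Noct are below 0 in all 4.

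Genes of the extracellular matrix had the next highest median, 0.30 in the high and -0.05 in the low class. Of 31 members 0 were called, 14 were higher and 0 lower at an unadjusted p under 0.05, and 20 had both MF livers above both C livers. The median without each array in turn ran from 0.14 (without MF high mock) to 0.38 (without MF high Wy). Dermatopontin, Dpt, which organises collagen fibrils, read 7.50 and 7.26 in C and 8.13 and 7.80 in MF (0.59 ± 0.14, adjusted p = 0.119). The gelatinase Mmp2 had 0.55 ± 0.15, the collagen chain Col1a1 0.32 ± 0.09 and fibronectin Fn1 0.28 ± 0.08. The 14 stellate cell and fibroblast markers had a median of 0.06 (0.05 without MF high mock, 0.19 without MF high Wy), and their mean log2 level was 7.61 and 7.55 in C and 7.75 and 7.61 in MF of high body weight, 4 of the 14 were higher at an unadjusted p under 0.05, and their part in the matrix list was not tested. Among 19 chaperones and other genes of the endoplasmic reticulum, Dnajb9 (0.48 ± 0.10, adjusted p = 0.0767), the unfolded protein response factor Xbp1 (0.71 ± 0.15, adjusted p = 0.092) and the chaperone Hspa5 (0.32 ± 0.14) were the 3 at an unadjusted p under 0.05, and the list's median was 0.08 (0.02 without MF high mock, 0.18 without C high mock). The 15 genes of the integrated stress response had a median of 0.11 and 1 call, Chac1, while the mitochondrial folate enzyme gene Mthfd2 had 0.27 ± 0.11 (adjusted p = 0.405).

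Clock genes and genes of glucose handling had negative medians in the high class. Of 17 circadian genes 1 was called, Usp2, and 7 were lower and 1 higher at an unadjusted p under 0.05 (median -0.31, -0.33 to -0.15 without each array in turn, nearest to 0 without C high mock). The repressor Nfil3 was the higher one, at 7.57 and 5.96 in C and 8.70 and 8.53 in MF (1.85 ± 0.44, adjusted p = 0.126). Noct was lower by about the same amount in both classes (-0.54 ± 0.17 and -0.52 ± 0.17), and Hlf, a transcription factor of clock output, had -0.49 ± 0.17 in the high and -0.05 ± 0.17 in the low class. Each mouse was sampled once, so the phase of the clock was not measured.

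Of 20 genes of gluconeogenesis, glycolysis and insulin signalling 2 fell in the high class, Ppargc1a and Irs1, with a list median of -0.21 (-0.03 without MF high mock, -0.26 without MF high Wy). Irs2, the other main hepatic insulin receptor substrate, read 7.20 and 7.76 in C and 7.71 and 8.72 in MF (0.73 ± 0.23, adjusted p = 0.23), the opposite sign to Irs1. Igfbp1, an insulin-repressed binding protein of insulin-like growth factors, read 9.81 and 10.01 in C and 11.19 and 11.57 in MF (1.47 ± 0.41, adjusted p = 0.193). The insulin receptor gene Insr differed by 0.07 ± 0.09 and the gluconeogenic enzyme genes G6pc and Pck1 by -0.40 ± 0.17 and -0.18 ± 0.11.

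No gene of the lipid pathways was called. The 14 triglyceride synthesis genes had a median of -0.24 in the high class (-0.24 to -0.15 without each array in turn). In the low class it was -0.04. In the high class 3 of the 14 were lower and 0 higher at an unadjusted p under 0.05, against 5.31% lower among all genes. The 24 lipogenesis genes had a median of -0.19 over both classes with 0 calls, -0.06 in the high and -0.22 in the low class, where 6 were lower at an unadjusted p under 0.05 and 14 of 24 had both MF livers below both C livers, against 10.5% of all genes. Fatty acid synthase Fasn read 11.61 and 11.90 in C and 11.24 and 11.13 in MF of low body weight (-0.57 ± 0.13, adjusted p = 1), and -0.13 ± 0.13 was the difference in the high class. Acaca, which supplies malonyl-CoA, had -0.60 ± 0.19 in the low class, and the elongase Elovl6 -0.60 ± 0.19. The 19 cholesterol synthesis genes had opposite medians, 0.19 in the high class (0.10 without C high mock and 0.40 without C high Wy) and -0.21 in the low class, among them squalene epoxidase Sqle at 0.80 ± 0.27 and -0.62 ± 0.27, with 0 calls in either. Medians of 25 fatty acid oxidation genes (-0.06 and 0.00), 22 other PPARα targets (-0.03 and -0.09), 28 respiratory chain genes (-0.01 and -0.03) and 22 lipid droplet genes (0.09 and -0.02) lay near 0 in both classes, and that of the droplet genes in the high class was -0.04 without C high Wy and 0.23 without C high mock. The droplet coat gene Plin3 read 8.76 and 8.27 in C and 9.25 and 8.96 in MF of high body weight (0.59 ± 0.14, adjusted p = 0.142). Of 21 genes with male-biased expression in liver 0 were called and 10 had both MF livers below both C livers of high body weight, against 17.0% of all genes (median -0.19, -0.02 without MF high mock and -0.46 without MF high Wy). Of 12 tested genes with female-biased expression 0 were called. Their medians were 0.23 in the high class (0.05 to 0.34 without each array in turn) and 0.13 in the low class. Both MF livers lay above both C livers of high body weight for 4 of the 12, against 15.8% of all genes. The 23 bile acid genes had -0.14 and -0.04, and Cyp7a1, whose product takes the first step from cholesterol to bile acids, read 10.67 and 8.84 in C and 9.83 and 5.05 in MF of high body weight (-2.32 ± 0.76, adjusted p = 0.268).

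No marker of immune cells was called, and the medians of the B and plasma cell, MHC class II and T and NK cell lists had opposite signs in the weight classes. The 10 tested B and plasma cell markers of 12 had a median of -0.41 in the high class (-0.22 without C high mock, -0.75 without C high Wy) and 0.42 in the low class. Their mean log2 level was 6.21 and 5.45 in C and 5.31 and 5.30 in MF of high body weight, and 5.30 and 5.14 in C and 5.70 and 5.98 in MF of low body weight. The B cell receptor subunit Cd79b read 7.09 and 6.61 against 6.17 and 5.97 in the high class (-0.78 ± 0.18, adjusted p = 0.115), while Ms4a1 did not pass the intensity filter. The 11 MHC class II and dendritic genes had -0.35 (-0.56 without C high mock, -0.16 without C high Wy) and 0.20, with mean levels of 7.74 and 7.89 in C against 7.65 and 7.32 in MF of high body weight and 6.93 and 6.82 against 7.09 and 7.12 in the low class. The 16 Kupffer cell markers had -0.16 in the high class (-0.52 without MF high mock, -0.11 without MF high Wy) and 0.03 in the low class, with high class mean levels of 8.87 and 9.15 in C and 8.86 and 8.73 in MF, 4 of them lower at an unadjusted p under 0.05, including the iron exporter Slc40a1 (-0.72 ± 0.19) and the lectin Clec4f (-0.51 ± 0.16). Of 12 neutrophil markers 6 were tested, with mean levels of 4.72 and 5.04 in C and 4.86 and 5.05 in MF, near the filter of 4.32. The part of these cells in the 43 calls was not tested. Among 22 chemokines and cytokines Cxcl1 was the single call, and the list's median was 0.01. The 24 interferon-induced genes had -0.03 in the high class, where the matched mock livers gave a median of 0.44 and the Wy livers -0.43, and -0.30 to 0.28 without each array in turn.

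The 12 genes that the study itself followed for steatosis, inflammation with fibrosis, and macrophages gave 0 calls in any contrast. The study chose them, and they are not independent evidence of a direction. Over both classes the droplet and steatosis genes differed by 0.16 ± 0.71 (Cidea, SE, n = 4 mice per diet), 0.13 ± 0.61 (Cidec), -0.11 ± 0.34 (Mogat1) and 0.11 ± 0.26 (Fgf21). Cidea read 7.81 and 9.86 in C and 8.51 and 9.62 in MF of high body weight, against 4.57 and 6.36 in C and 4.41 and 6.70 in MF of low body weight, so its level followed weight class and treatment in both diets. Saa2 (1.78 ± 0.98), Lcn2 (0.94 ± 0.80), Mt2 (0.50 ± 0.69) and Timp1 (0.25 ± 0.24) were higher in MF on average. In the high class Saa2, Lcn2 and Mt2 had both MF livers above both C livers, as did 15.8% of all genes. The macrophage genes Ccl2 (-0.08 ± 0.19), Ccl3 (0.30 ± 0.35), Adgre1 (-0.37 ± 0.24) and Cd68 (-0.10 ± 0.27) were mixed. In the high class 1 of these 4 had both MF livers above and 1 had both below both C livers.

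The other diets give a scale for the high class genes. Cxcl1 lay between 6.22 and 6.80 in CR and between 6.58 and 7.86 in INT livers, below both MF high livers. Socs3 ran from 5.96 to 6.67 in CR and from 6.18 to 7.90 in INT, and Steap4 from 9.72 to 10.59 and from 10.06 to 11.37. For Socs3, Steap4, Saa2 and Fga the highest INT value was that of the high Wy liver, whose array has the other code prefix. Ppargc1a was 9.03 to 10.67 in CR livers, above both MF high livers, and Irs1 8.24 to 8.82 in CR and 8.14 to 8.34 in INT livers, also above.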

How the data were processed

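RNA from 16 livers was hybridised to Affymetrix Mouse Gene 1.1 ST arrays, 1 mouse per array. The deposited values are log2 intensities that the authors made by RMA, which subtracts background, equalises the distributions of the arrays and summarises probes. Software version and annotation are not given in the sources used here. Equalised distributions hide a shift shared by most genes, and precision is limited by how many arrays there were.

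Of 35556 transcript clusters 21218 had 1 gene in the platform annotation, 1881 had several and were left out, and 12457 were not named. The cluster with the highest mean stood for each of 1386 genes with more than 1, giving 18820 genes, of which the intensity filter left out 4545. Models were fitted to all 16 arrays with limma 3.58.1 in R 4.3.3 (lmFit, eBayes). The first had diet, treatment and body weight class as terms. The others had diet by weight class groups with treatment, and diet by treatment groups with weight class. The code was tested on simulated data. Gene lists held 843 genes, of which 716 were tested and 91 had no cluster.

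The compared livers and the lists were chosen with earlier results of these data known. Genes named outside the lists were those called or, where none was called, those with the smallest p in each direction. For the difference contrasts the 5 smallest p were taken, and for lists up to 4 members with the smallest p. Predicted genes and olfactory receptors were skipped. The 12 genes the study followed and Ppara were always given. Beyond this rule, all genes called in high body weight livers were named, and Saa3, Irs2, Igfbp1, Insr, G6pc, Pck1, Mthfd2, Mt1, Fgg and the other list members outside it were chosen after their values were seen. Alternatives changed the filter, the variance model, the arrays fitted, centring, the block and the cluster rule, and left out each MF and C array in turn. The fit on high body weight arrays and that with array weights by weight class were added after seeing the data.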

Additional observations from a re-analysis of the deposited data

Results flagged for a closer look

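The MF minus C difference itself differed between high and low body weight livers for 3 genes by limma's test of the interaction. It was larger in the high class by 4.11 for Cxcl1, 1.82 for Zc3h13 and 1.03 for Smco4 on the log2 scale.

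Within a diet, 1 liver stood apart from the other 3 in 6 of 160 groups of 4 livers (80 genes in each diet) by Dixon's criterion. Among 4 like samples chance gives about 1 in 20 groups, and 6 of 160 is not above that rate. The 4 livers of a diet differ in weight class and treatment, so they are not like samples and that rate does not strictly apply. The gap is given as a share of the group's range. The macrophage gene Adgre1 read 8.34 in MF high mock and 7.81 to 7.84 in the other MF livers (0.93). Bmp7 read 6.46 in MF low mock and 6.10 to 6.14 in the others (0.897). The lipid droplet gene Cidec read 6.64 in MF low mock and 11.05 to 11.71 in the others (0.871). Rny1 read 4.74 in MF low mock and 5.10 to 5.15 in the others (0.888). Among C livers, Cpne8 read 6.72 in C low Wy and 6.42 to 6.47 in the others (0.835), and Lrig2 read 7.05 in C low mock and 7.36 to 7.39 in the others (0.914).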

How the results depend on the processing

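Each diet had 2 mice per weight class, and the calls in high body weight livers changed with the arrays fitted. Their count, 43, was 1 to 35 without each MF or C array in turn, 114 without the 2 arrays of the other code prefix, 128 with array weights and 2 on high body weight arrays alone. The count for the difference between weight classes, 3, was 9 without the intensity filter, 8 with a trended robust variance, 7 on the 8 MF and C arrays, 17 without those 2 arrays, 14 with array weights and 2 to 7 without 1 array. All 43 genes stayed called without those 2 arrays and with array weights, and 28 of them on the 8 MF and C arrays. Mock livers gave 0 to 1 calls and Wy livers 0 to 3 without 1 array. The comparisons over both classes and in the low class gave 0 calls under every alternative run. Pairing the matched MF and C livers, with a block for each weight class by treatment combination, gave 0 calls over both classes (602 at an unadjusted p under 0.05), and mock and Wy mice of 1 diet and class as a random block also gave 0 (520). The cause of these changes was not tested.

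The direction over both classes turned for 8 of the genes the study followed, all uncalled. Without 1 array each, Cidea ran from -0.29 to 0.73 (-0.29 without C low mock, -0.16 without MF high mock, -0.17 without MF high Wy). Cidec ran from -0.52 to 0.74 (-0.52 without MF high mock, -0.13 without C high Wy, -0.026 without C low mock, -0.025 without MF low Wy) and was -0.19 on mock arrays alone. Mogat1 ran from -0.36 to 0.12 (0.12 without C high mock, 0.0053 without C high Wy, 0.096 without MF low mock). Fgf21 ran from -0.0102 to 0.29 and Ccl3 from -0.064 to 0.55, each lowest without MF high mock. Ccl2 ran from -0.28 to 0.0415, highest without MF low mock, and Cd68 from -0.30 to 0.12, highest without C high mock. Mt2 was -0.051 on mock arrays alone.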
